A study of Mus musculus with 10 samples.

Results

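The mitochondrial carriers of the Slc25 family were read out in lumbar spinal cord of mice treated with paclitaxel (5 libraries) or with vehicle (5 libraries). The family was taken as every gene of the deposited count table whose symbol is Slc25a followed by a number, or Ucp1, Ucp2 or Ucp3, which gave 50 of 24411 listed genes. Paclitaxel is a microtubule-stabilising cancer drug that causes a painful peripheral neuropathy, and the study used it as a mouse model of that condition. The labels give the tissue and the treatment of each sample and no strain, age, dose or time. Nothing in them ties a sample to an animal of its own, so the spread behind each p-value may be technical.

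Slc25 proteins sit mostly in the inner membrane of the mitochondrion and exchange solutes between the matrix and the space outside it. They carry ADP and ATP, phosphate, keto acids, amino acids, acylcarnitine, nucleotides, cofactors and iron, and so set what enters the tricarboxylic acid cycle and what leaves oxidative phosphorylation. The uncoupling proteins belong to the same family, and Ucp1 lets protons leak back to make heat in brown fat. In nervous tissue the family is known for the aspartate/glutamate carrier of the malate-aspartate shuttle, which neurons use to bring the reducing power of cytosolic NADH into mitochondria.

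Library totals ran from 3676259 to 5432072 counts after paclitaxel and from 4585899 to 7791594 counts after vehicle. Lumbar Hox genes summed to 218 to 244 CPM after paclitaxel and 217 to 256 CPM after vehicle, where CPM is a count scaled to a common library size. Skeletal muscle markers summed to 0.739 to 1.88 CPM after paclitaxel and 0.723 to 2.60 CPM after vehicle. Of 5 fat markers, Elovl3 was at 0 in all libraries, and the list summed to 2.12 to 4.25 CPM after paclitaxel and 2.05 to 3.49 CPM after vehicle, nearly all of it Cidea. Paclitaxel replicate 3 stood apart in a list of 8 glucocorticoid response genes, which summed to 1154 CPM there, against 299 to 484 CPM in the other paclitaxel libraries and 299 to 652 CPM in the vehicle libraries. Leaving that library out changed the sign of a log2 fold change or moved it by over 1.5 times for 22 of the 42 members tested, against 9 to 18 members for each of the other libraries. Xist and 4 Y-linked genes together summed to 226.9 CPM in the same library. They summed to 164 to 174 CPM in the other paclitaxel libraries and to 147 to 169.8 CPM in the vehicle libraries. Xist alone averaged 0.293 CPM after paclitaxel and 0.0434 CPM after vehicle, so nearly all of these sums came from the Y-linked genes.

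The 50 members lie on 19 chromosomes. RefSeq (GRCm38.p6) gives a promoter window, 300 bases around the start of the gene, for 39 of them, and the first listed start was used for the 7 with several. The median window of the members had 60.3% G or C and 17 CG dinucleotides, and that over 27025 genes had 52.7% and 7. The letters CCAAT, searched on both strands, occurred in 43.6% of the members' windows and in 37.9% of all windows. The letters TATAAA occurred in 2.56% of the members' windows and in 14.2% of all windows, and TCAAGGTCA in 0 of the 39 and in 0.407% of all windows, both also searched on both strands. The palindromic core motif of NRF1 occurred in 0 of the 39 windows and in 0.977% of all windows. For this motif and for TCAAGGTCA, 39 windows are too few at such low shares for a count of 0 to set the members apart. Windows are printed for the most abundant member (Slc25a4), for the member with the lowest p (Slc25a28) and for a member with no read (Ucp1). Each is 5′ to 3′ on the strand of the gene, with CCAAT or its reverse complement in capitals.
Slc25a4, chr8:46211013-46211312, minus strand: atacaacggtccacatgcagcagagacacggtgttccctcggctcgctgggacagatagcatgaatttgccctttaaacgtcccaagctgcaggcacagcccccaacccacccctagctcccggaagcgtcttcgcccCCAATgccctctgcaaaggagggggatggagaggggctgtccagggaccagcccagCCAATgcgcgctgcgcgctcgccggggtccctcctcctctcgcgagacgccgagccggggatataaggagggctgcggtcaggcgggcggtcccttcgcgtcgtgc
Slc25a28, chr19:43674832-43675131, minus strand: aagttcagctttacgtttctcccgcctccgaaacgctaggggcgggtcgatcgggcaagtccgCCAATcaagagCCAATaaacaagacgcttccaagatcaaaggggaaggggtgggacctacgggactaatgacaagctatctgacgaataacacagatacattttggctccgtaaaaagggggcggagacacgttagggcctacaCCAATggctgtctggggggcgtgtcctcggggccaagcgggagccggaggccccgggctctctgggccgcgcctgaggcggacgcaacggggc
Ucp1, chr8:83290098-83290397, plus strand: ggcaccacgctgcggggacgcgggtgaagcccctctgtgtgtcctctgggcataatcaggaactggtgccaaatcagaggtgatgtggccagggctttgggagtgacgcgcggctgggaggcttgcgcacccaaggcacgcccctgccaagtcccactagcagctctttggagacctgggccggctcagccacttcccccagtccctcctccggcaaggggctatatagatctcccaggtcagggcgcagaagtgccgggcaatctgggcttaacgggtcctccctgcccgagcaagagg
Each of these 3 genes has 1 listed start, which for Slc25a28 lies 125 bases inside the annotated gene. The window of Slc25a4 had 65.7% G or C and that of Ucp1, which had no read, 64.7%. CCAAT was in the windows of Slc25a4 and Slc25a28 and not in that of Ucp1. A match is only a run of letters, and its use in this tissue was not tested.

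Reads reached 48 of the 50 members, and 42 had enough counts to be tested. Ucp1 and Slc25a54 had no read in any library, where 3 counts would have been 0.385 to 0.816 CPM. The other 6 untested members were Slc25a21 (52 counts over all libraries), Slc25a43 (26 counts), Slc25a2 (15 counts), Slc25a41 (7 counts), Slc25a31 (4 counts) and Slc25a48 (4 counts). Slc25a31 is the ADP/ATP carrier of the testis, and Slc25a41 is a relative of the ATP-Mg/phosphate carriers.

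Levels of the tested members spanned a 420.2-fold range per kilobase of transcript. Slc25a4, one of the ADP/ATP carriers, stood first at 336 ± 7.29 CPM per kilobase after paclitaxel and 352 ± 7.81 CPM per kilobase after vehicle (SD, n = 5 each). Slc25a3, which brings phosphate into the matrix, followed at 243 ± 6.05 CPM per kilobase after paclitaxel and 245 ± 10.7 CPM per kilobase after vehicle. The second ADP/ATP carrier, Slc25a5, was at 221 ± 10.8 CPM per kilobase after paclitaxel and 226 ± 8.74 CPM per kilobase after vehicle. These 3 genes, which serve ATP synthesis and export, made up 55.8% ± 0.492 of the summed per-kilobase level of the family after paclitaxel and 55.7% ± 0.478 after vehicle (SD, n = 5 each). Slc25a23, the next member, was at 53.5 ± 2.95 CPM per kilobase after paclitaxel and 54.6 ± 2.60 CPM per kilobase after vehicle. Of the 41 neighbouring pairs in this order, 38 overlapped in range over the 10 libraries. The exceptions were Slc25a4 above Slc25a3, Slc25a5 above Slc25a23, and Slc25a39 above Slc25a12. Transcript lengths are medians over annotated transcripts, so an order within overlapping ranges should not be read.

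**Figure D1:**
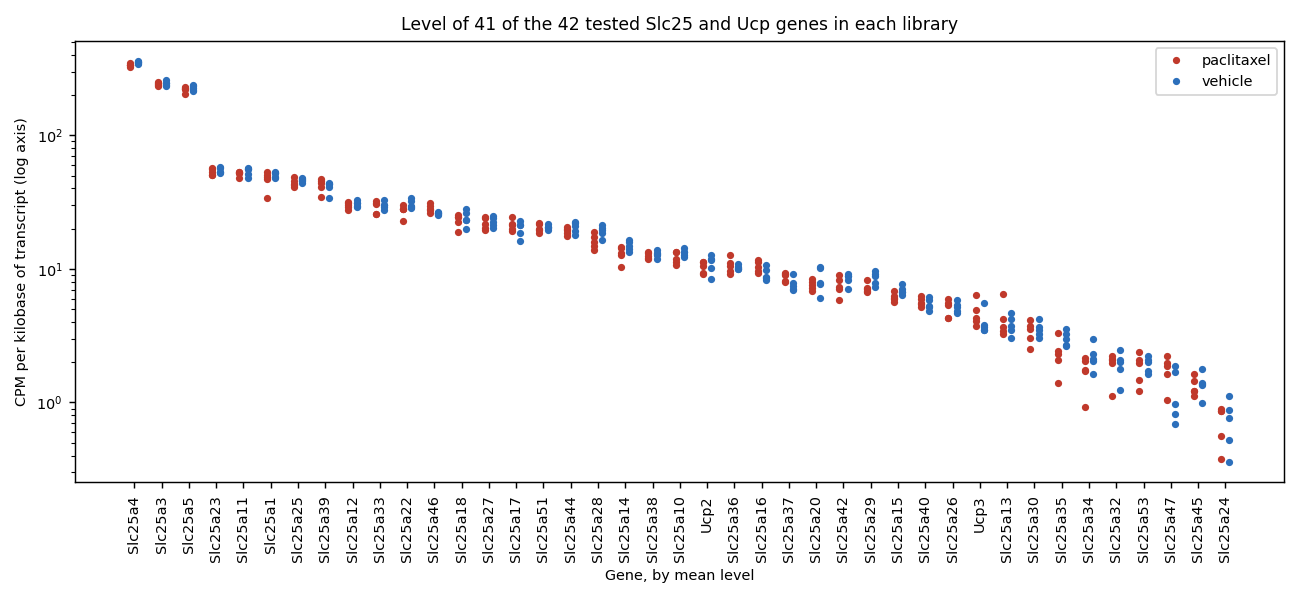
Level of 41 of the 42 tested members in each library, in CPM per kilobase of transcript on a log axis (red, paclitaxel; blue, vehicle; 5 libraries each). Slc25a4, Slc25a3 and Slc25a5 stand above the other 38 members shown, and the colours overlap along the whole order.

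No member passed the comparison of paclitaxel with vehicle across all genes. In edgeR's quasi-likelihood test 0 of 42 members had an adjusted p under 0.05, and adjusted p ran from 0.792 to 1.00. The background was the same, with 0 of 13287 tested genes (0%) called. At an unadjusted p under 0.05 there were 4 members, 9.52% of those tested, against 6.07% of all genes. Of the 4, 1 had a higher mean after paclitaxel (background 2.94%) and 3 a lower one (background 3.12%). Against 806 of all genes at that level, the members' count of 4 became 2 without paclitaxel replicate 3 (648 of all genes), 7 without paclitaxel replicate 5 (903 of all genes) and 1 without vehicle replicate 3 (515 of all genes). It was 1 once GC content and length were corrected for (610 of all genes). No member had groups that did not overlap, which 1.09% of all tested genes had.

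The differences were small in either direction. The median absolute log2 fold change was 0.08 over the members and 0.08 over all genes tested. The 95% interval of the fold change lay within 1.5-fold for 38 of the 42 members (90.5%) and for 86.7% of all genes tested. Its exceptions were Slc25a24, Slc25a34, Slc25a35 and Slc25a47, all with means under 6 CPM. Values below 0 on the log2 scale were found for 32 members (76.2%) and for 50.9% of all genes, with a median of -0.040 for the members and -0.0027 for all genes. Under 3 other scalings the members' median ran from -0.037 to -0.034. All 5 paclitaxel libraries were below the vehicle mean for 9 members (21.4%) and for 8.65% of all genes, and above it for 3 members (7.14%) and 6.71% of all genes. Members share libraries and are not replicates of the treatment, and the members made up 0.308% ± 0.0061 of counts after paclitaxel and 0.316% ± 0.0060 after vehicle (SD, n = 5 each), with overlapping ranges.

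**Figure D2:**
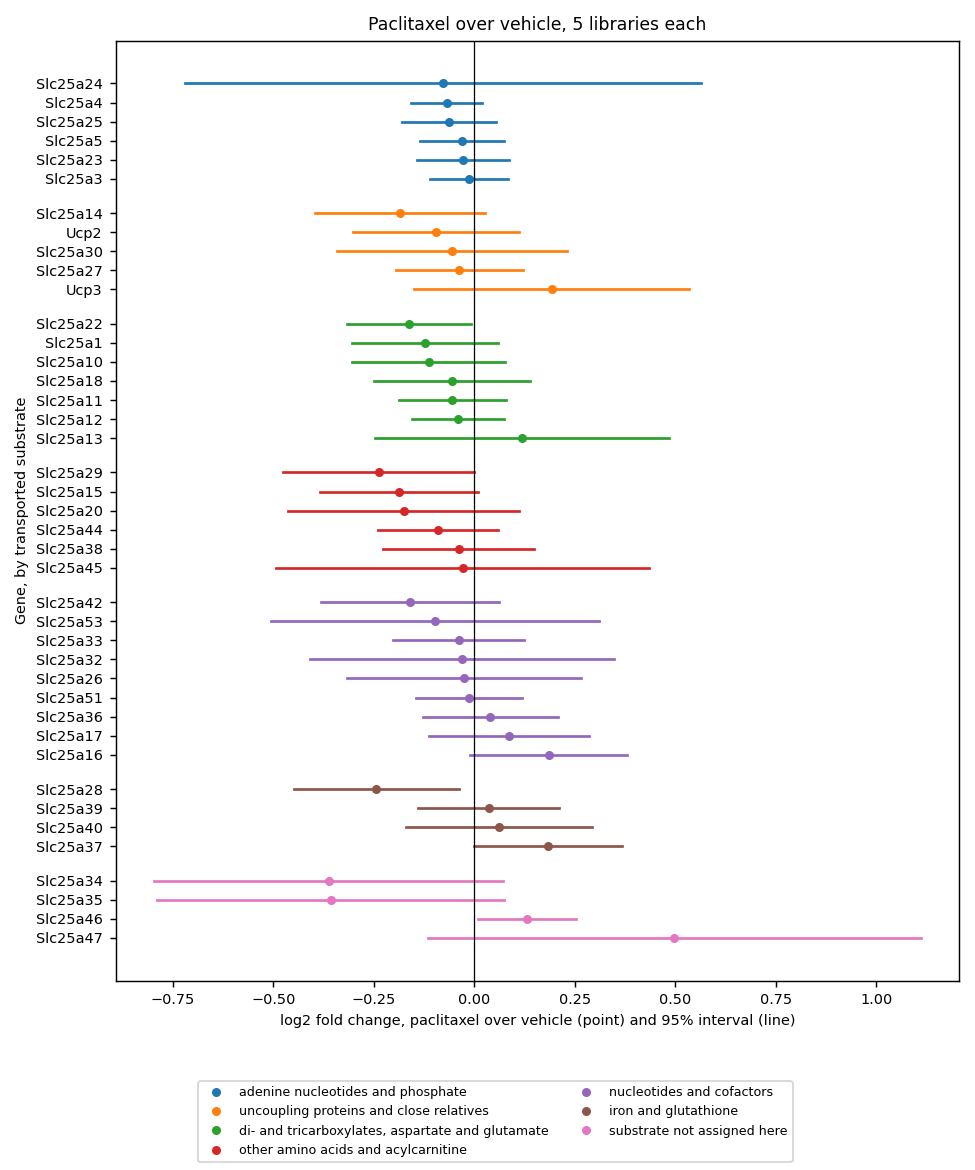
Log2 fold change of paclitaxel over vehicle for 41 of the 42 tested members (points) with 95% intervals (lines), grouped by transported substrate. The intervals of the abundant carriers are narrow and span 0, and those of Slc25a28, Slc25a46, Slc25a22 and Slc25a29 lie to 1 side of it, at unadjusted p.

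The carriers of adenine nucleotides and phosphate had 6 tested members, all with log2 fold changes between -0.08 and -0.012 and none called. Slc25a4 lies on chromosome 8 from 46207168 to 46211062 (GRCm38). It was at 664, 652, 626, 645 and 648 CPM in the paclitaxel libraries and at 685, 696, 682, 655 and 674 CPM in the vehicle libraries. All 5 paclitaxel libraries were below the vehicle mean, and replicate 1 stood within the vehicle range, so the groups overlapped. For Slc25a4 the log2 fold change came to -0.068 (SE 0.04, with 95% bounds of -0.16 and 0.02; edgeR unadjusted p = 0.124, adjusted p = 0.811). A decrease to below 0.897-fold lay outside that interval. The level of Slc25a5 (X chromosome, 36795597 to 36798808) was at 278, 278, 251, 279.9 and 286 CPM after paclitaxel and at 288, 271, 293, 268 and 282 CPM after vehicle. Paclitaxel replicate 3 was the lowest of the 10, and the others were intermixed. The log2 fold change of Slc25a5 was -0.030 (SE 0.05; edgeR adjusted p = 0.943), and 0.0018 without paclitaxel replicate 3. Genes for ADP/ATP carriers have processed pseudogenes, to which some of their reads could be lost.

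The calcium-regulated ATP-Mg/phosphate carriers adjust the size of the adenine nucleotide pool. Slc25a23 was at 179.9 ± 9.93 CPM after paclitaxel and 184 ± 8.75 CPM after vehicle, and Slc25a25 at 145 ± 9.504 CPM after paclitaxel and 152 ± 4.76 CPM after vehicle (SD, n = 5 each). Slc25a24, at 2.43 ± 0.796 CPM after paclitaxel and 2.51 ± 1.03 CPM after vehicle, was the lowest tested member of the family per kilobase. Expected counts of Slc25a25 were not whole in any of the 10 libraries, which happens where reads fit more than 1 gene. Slc25a26 had such a value in 1 library, and the other 48 members in none.

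Among the uncoupling proteins and their relatives, none was called. The best expressed per kilobase was Slc25a27, a brain-enriched relative of the uncoupling proteins, at 57.0, 62.8, 58.2, 69.3 and 70.5 CPM after paclitaxel and 69.1, 59.0, 71.5, 61.6 and 65.0 CPM after vehicle. The ranges of the groups nearly coincided, and the log2 fold change was -0.037 (SE 0.08). Slc25a14, another brain-expressed relative, on the X chromosome, was at 26.0, 22.9, 18.7, 23.7 and 26.4 CPM after paclitaxel and at 28.7, 25.5, 29.5, 26.9 and 24.0 CPM after vehicle. Paclitaxel replicate 3 was the lowest library, and the groups overlapped. Its log2 fold change was -0.18 (SE 0.10; edgeR unadjusted p = 0.0832, adjusted p = 0.80) and -0.11 without paclitaxel replicate 3.

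Ucp2, which is expressed in immune cells and microglia among others, was at 44.8, 36.2, 42.03, 37.4 and 45.1 CPM after paclitaxel and at 33.8, 46.1, 40.7, 47.3 and 51.0 CPM after vehicle. The lowest and the highest libraries were both vehicle libraries, and the log2 fold change was -0.095 (SE 0.10; edgeR adjusted p = 0.88), and with each library left out it ran from -0.17 (without vehicle replicate 1) to -0.027 (without vehicle replicate 5). Microglia markers (5 genes) summed to 140.3 to 186 CPM after paclitaxel and 143 to 183 CPM after vehicle. Ucp3, best known from skeletal muscle, was at 9.14, 10.5, 15.7, 12.01 and 9.91 CPM after paclitaxel and at 9.04, 8.56, 8.58, 9.33 and 13.6 CPM after vehicle. Replicate 3 of paclitaxel and replicate 5 of vehicle were the highest. The same libraries had the highest sums of glucocorticoid response genes, 1154 and 652 CPM, and the part of that in the Ucp3 level was not tested. The log2 fold change of Ucp3 was 0.19 (SE 0.17; edgeR adjusted p = 0.848), 0.048 without paclitaxel replicate 3 and 0.36 without vehicle replicate 5. In bulk tissue, fewer cells of a type and less RNA per cell cannot be told apart.

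The carriers of di- and tricarboxylates, aspartate and glutamate had 7 tested members, 6 with values below 0 and none called. Slc25a11, the oxoglutarate/malate exchanger of the malate-aspartate shuttle, was at 91.4, 82.1, 88.7, 89.2 and 91.6 CPM after paclitaxel and at 82.6, 98.2, 95.7, 87.7 and 95.4 CPM after vehicle, a log2 fold change of -0.055 (SE 0.06). The groups were intermixed, and the value was -0.024 without paclitaxel replicate 2, -0.026 without vehicle replicate 2, -0.086 without vehicle replicate 1 and -0.015 once GC content and length were corrected for. Slc25a12, the neuronal aspartate/glutamate carrier of that shuttle, was at 189 ± 9.96 CPM after paclitaxel and 195 ± 10.3 CPM after vehicle, and its relative Slc25a13, which predominates in liver, at 13.1 ± 4.11 CPM after paclitaxel and 11.9 ± 2.02 CPM after vehicle (SD, n = 5 each). Per kilobase Slc25a12 exceeded Slc25a13 by 7.56 ± 1.90 times after paclitaxel and 8.24 ± 1.56 times after vehicle (SD, n = 5 each), and the paclitaxel mean was 8.25 ± 1.27 times without replicate 3 (SD, n = 4), where the ratio was lowest at 4.80. The log2 fold change of Slc25a13 was 0.12 (SE 0.18) and turned to -0.094 without that library. The cytosolic and mitochondrial enzymes of the shuttle (Got1, Got2, Mdh1 and Mdh2) had log2 fold changes from -0.04 to 0.03, with 0 of 4 called.

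Slc25a22, a mitochondrial glutamate carrier, lies on chromosome 7 from 141429749 to 141437874. It was at 79.9, 75.04, 60.9, 75.03 and 75.6 CPM after paclitaxel and at 75.9, 86.6, 90.4, 78.1 and 79.1 CPM after vehicle. Each paclitaxel library was below the vehicle mean, the groups overlapped, and replicate 3 lay well below the other paclitaxel libraries. The log2 fold change was -0.16 (SE 0.07; edgeR unadjusted p = 0.0409, adjusted p = 0.798) and -0.099 without paclitaxel replicate 3. It was -0.10 once GC content and length were corrected for. The second glutamate carrier, Slc25a18, which astrocytes express, was at 44.3 ± 4.90 CPM after paclitaxel and 46.1 ± 5.95 CPM after vehicle. Slc25a1 exports citrate for lipid synthesis. It was at 56.9 CPM in paclitaxel replicate 3, against 78.0 to 88.0 CPM in the other paclitaxel libraries and 80.3 to 88.2 CPM in the vehicle libraries, and its log2 fold change of -0.12 became -0.026 without that library. Slc25a13 was at 20.2 CPM in the same library, against at most 13.1 CPM in the other paclitaxel libraries and 14.6 CPM in the vehicle libraries.

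Carriers of other amino acids and of acylcarnitine had 6 tested members, all with values below 0 and none called. Slc25a29 (chromosome 12, 108825878 to 108835876) carries basic amino acids. Its level was at 14.3, 13.9, 13.6, 13.4 and 16.3 CPM after paclitaxel and at 14.5, 15.4, 17.4, 18.2 and 19.0 CPM after vehicle. Only paclitaxel replicate 5 reached into the vehicle range, with a log2 fold change of -0.24 (SE 0.12; edgeR unadjusted p = 0.0498, adjusted p = 0.80). The value was -0.18 without vehicle replicate 5 and -0.16 once GC content and length were corrected for. Its unadjusted p was under 0.05 in 3 of 23 alternatives. Slc25a44, a carrier of branched-chain amino acids, had the highest level per kilobase of this group, at 64.9, 67.7, 72.0, 60.8 and 68.6 CPM after paclitaxel and 62.5, 77.4, 67.1, 72.5 and 76.0 CPM after vehicle. The groups overlapped widely, with a log2 fold change of -0.090 (SE 0.07; -0.054 without vehicle replicate 2 and -0.056 without paclitaxel replicate 4). The ornithine carrier Slc25a15 had a log2 fold change of -0.19 (SE 0.10), the carnitine/acylcarnitine carrier Slc25a20 of -0.18 (SE 0.14; -0.077 without vehicle replicate 5 and -0.10 without vehicle replicate 1), and the glycine carrier Slc25a38, needed for haem synthesis, of -0.039 (SE 0.09; -0.0047 without vehicle replicate 5).

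Of the 10 members grouped here as carriers of nucleotides and cofactors, 7 had values below 0 and 3 above, and none was called. The lowest p belonged to Slc25a16, tied to coenzyme A in mitochondria, at 32.6, 35.5, 36.9, 29.5 and 30.5 CPM after paclitaxel and 33.6, 26.2, 26.8, 27.3 and 30.9 CPM after vehicle. All 5 paclitaxel libraries were above the vehicle mean, and vehicle replicates 1 and 5 stood among them. Slc25a16 had a log2 fold change of 0.18 (SE 0.09; edgeR unadjusted p = 0.0616, adjusted p = 0.80). With each library left out it ran from 0.14 (without paclitaxel replicate 3) to 0.25 (without vehicle replicate 1). The value was 0.13 once GC content and length were corrected for. Slc25a33, a pyrimidine nucleotide carrier and the highest of the group per kilobase, was at 57.4, 58.4, 48.4, 48.6 and 61.1 CPM after paclitaxel and 52.1, 61.8, 57.2, 54.7 and 56.5 CPM after vehicle. Its log2 fold change was -0.039 (SE 0.08). The NAD carrier Slc25a51 was at 90.6 ± 6.40 CPM after paclitaxel and 91.3 ± 3.65 CPM after vehicle (SD, n = 5 each).

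Both iron importers of mitochondria, the mitoferrins, were expressed. Slc25a28, the widely expressed mitoferrin, lies on chromosome 19 from 43663801 to 43675006. It was at 24.6, 29.0, 26.7, 21.3 and 22.8 CPM after paclitaxel and at 28.6, 29.9, 32.998, 25.2 and 31.1 CPM after vehicle. All 5 paclitaxel libraries were below the vehicle mean, and the groups overlapped through vehicle replicates 1 and 4 and paclitaxel replicates 2 and 3. This gave a log2 fold change of -0.24 (SE 0.10, 95% interval -0.45 to -0.04; edgeR unadjusted p = 0.0223, adjusted p = 0.792), the lowest p of the family, at rank 337 of all genes. The value was -0.16 once GC content and length were corrected for. Slc25a37, the mitoferrin that red cell precursors depend on, was at 37.7, 34.0, 38.8, 37.9 and 33.4 CPM after paclitaxel and at 30.9, 29.3, 29.0, 38.0 and 32.7 CPM after vehicle. Each paclitaxel library was above the vehicle mean, and only vehicle replicate 4 exceeded the lowest of them. The log2 fold change of Slc25a37 was 0.18 (SE 0.09; edgeR unadjusted p = 0.0518, adjusted p = 0.80). Red blood cell markers (5 genes) summed to 62.2 to 276 CPM after paclitaxel and 126 to 227 CPM after vehicle, and their part in the Slc25a37 level was not tested.

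The ratio of the mitoferrins per kilobase, Slc25a28 to Slc25a37, was 1.77, 2.32, 1.87, 1.53 and 1.85 after paclitaxel and 2.51, 2.77, 3.09, 1.80 and 2.59 after vehicle. Vehicle replicate 4 lay within the paclitaxel range, and the other vehicle libraries lay above it. The means were 1.87 ± 0.288 after paclitaxel and 2.55 ± 0.475 after vehicle (SD, n = 5 each), a difference of -0.44 on the log2 scale. Of 8 paralogue ratios compared in this way it had the lowest p, and it did not pass once adjusted over the 8 (exact permutation test, two-sided, p = 0.0317, adjusted p = 0.254, smallest possible p = 0.00794). The pairs were set with the values known, and the ratios were not corrected for GC content. The other 7 ratios, among them Slc25a4 to Slc25a5 (1.52 ± 0.0554 after paclitaxel and 1.56 ± 0.0590 after vehicle) and Ucp2 to Ucp3 (2.29 ± 0.584 after paclitaxel and 2.79 ± 0.465 after vehicle), had adjusted p of 0.667 or more in the same exact test.

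Slc25a39, which imports glutathione, was the highest of the iron and glutathione group per kilobase, at 68.9, 74.1, 58.2, 76.4 and 78.9 CPM after paclitaxel and 57.3, 73.2, 69.5, 72.9 and 74.6 CPM after vehicle. Both groups held 1 low library, paclitaxel replicate 3 and vehicle replicate 1, and the log2 fold change was 0.036 (SE 0.08), and with each library left out it ran from -0.022 (without that vehicle library) to 0.10 (without that paclitaxel library). Its relative Slc25a40 was at 15.9 ± 1.15 CPM after paclitaxel and 15.2 ± 1.53 CPM after vehicle (SD, n = 5 each).

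**Figure D3:**
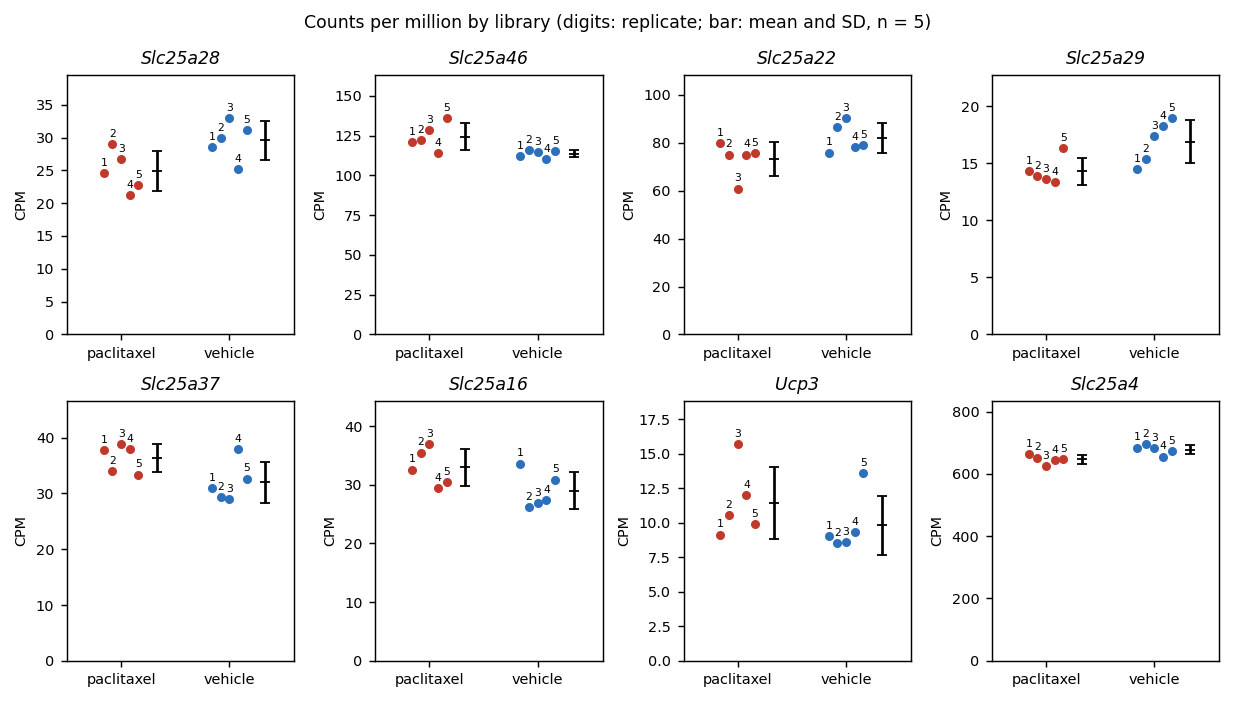
CPM of 8 members in each library, with the replicate number beside each point and the mean with its SD (n = 5) as a bar; axes start at 0. The groups overlap in all 8 panels. Paclitaxel replicate 3 is the highest for Ucp3, Slc25a16 and Slc25a37 and the lowest for Slc25a22 and Slc25a4.

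Slc25a46, on chromosome 18 from 31580164 to 31610532, is a carrier relative of the outer membrane that acts in mitochondrial fission and lipid handling, and its loss causes optic atrophy and peripheral neuropathy in people. It was at 121, 122, 128, 114 and 136 CPM after paclitaxel and at 112, 116, 115, 110.2 and 115 CPM after vehicle. Each paclitaxel library was above the vehicle mean, and paclitaxel replicate 4 alone lay within the vehicle range. For Slc25a46 the log2 fold change came to 0.13 (SE 0.06, with 95% bounds of 0.01 and 0.25; edgeR unadjusted p = 0.0353, adjusted p = 0.792). With each library left out in turn it ran from 0.096 to 0.16. It was 0.050 once GC content and length were corrected for. With the replicate number as a block as well it was 0.049, the lowest over all alternatives. Slc25a34, Slc25a35 and Slc25a47, for which no substrate was assigned here, were at 4.6 ± 1.29, 4.23 ± 1.26 and 2.76 ± 0.713 CPM after paclitaxel and at 5.91 ± 1.30, 5.53 ± 0.703 and 1.92 ± 0.855 CPM after vehicle (SD, n = 5 each). Their differences were the largest of the tested members, at -0.36 (SE 0.21), -0.36 (SE 0.21) and 0.50 (SE 0.30) on the log2 scale. None was called, and the part of low counts in the size of these differences was not tested. The value of Slc25a34 was -0.21 without vehicle replicate 5 and -0.23 without paclitaxel replicate 4, and that of Slc25a35 was -0.22 without paclitaxel replicate 3 and -0.54 without paclitaxel replicate 5.

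**Figure D4:**
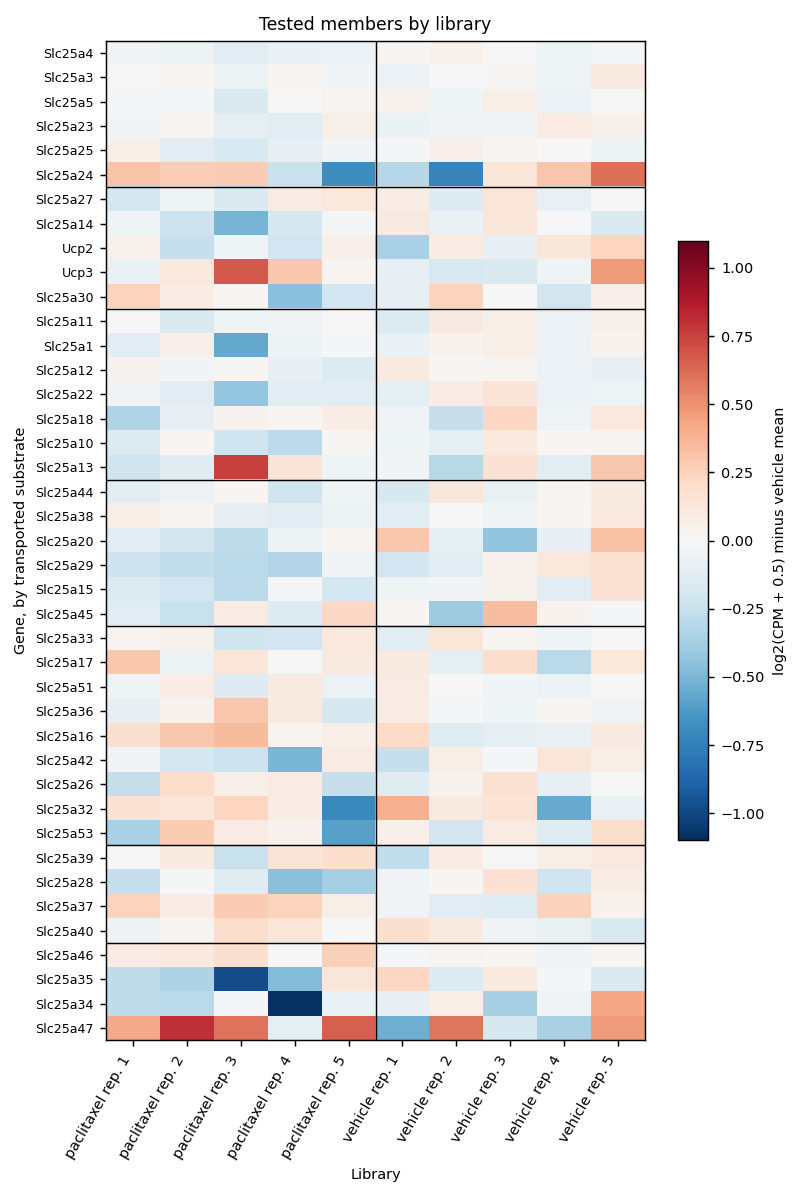
41 of the 42 tested members (rows, grouped by substrate, highest level per kilobase first in each group) in each library (columns), as log2(CPM + 0.5) minus the vehicle mean of that gene. Outside the iron and glutathione group, the abundant genes at the top of a group are paler than the low-count genes at its foot. Paclitaxel replicate 3 is the column farthest from the vehicle mean in the rows of Ucp3, Slc25a1, Slc25a22 and Slc25a13.

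The spread between libraries was close to that of other genes. The median biological coefficient of variation was 8.42% over the tested members and 8.49% over all tested genes. Extremes fell mostly on a few libraries. Paclitaxel replicate 3 was the lowest library for 11 of the 42 members and the highest for 6, and paclitaxel replicate 4, the shallowest library, was the lowest for 9. Vehicle replicate 3 was the highest for 9 members and vehicle replicate 5, the deepest library, for 8. These counts were not made over all genes, and the part of depth in them was not tested. Over all tested genes, paclitaxel replicate 3 also differed most within its group. Pairs with it had a chi-square of 5.00 to 6.89 per degree of freedom, and the other paclitaxel pairs 1.61 to 3.05.

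Genes that work beside the carriers also gave no call. Among 12 tested genes of the import pathway that inserts carriers into the inner membrane, 0 passed, and the lowest p belonged to Tomm20 (log2 fold change 0.13) and Timm13 (-0.17). Of 17 tricarboxylic acid cycle genes 0 passed, with Idh3b at -0.12 and Sdhb at -0.09. The pyruvate carrier subunits Mpc1 and Mpc2 had log2 fold changes of 0.15 and -0.12, with 0 of 5 genes called in a list with the outer membrane channels. Of 10 genes of carnitine and fatty acid oxidation 0 passed (Acadvl -0.13, Cpt1c -0.10), and of 8 genes of the mitochondrial calcium uniporter 0 passed (Micu3 0.17, Letm1 -0.08). Mtch1 and Mtch2, family members named differently, had log2 fold changes of -0.065 and -0.033.

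Regulators of mitochondrial genes likewise held 0 called genes of 11 tested. Esrra, the nuclear receptor that drives many oxidative phosphorylation genes, was at 64.9 ± 7.85 CPM after paclitaxel and 80.3 ± 10.9 CPM after vehicle (SD, n = 5 each). The difference was -0.30 on the log2 scale (SE 0.10; edgeR unadjusted p = 0.00540, adjusted p = 0.792). Ppargc1a, a coactivator of it, was at 79.8 ± 10.2 CPM after paclitaxel and 70.2 ± 5.33 CPM after vehicle (log2 fold change 0.18, SE 0.08; edgeR unadjusted p = 0.0339, adjusted p = 0.792). Esrra and Ppargc1a are named for having the lowest p of the 11. Ppargc1b, of the same list, went the other way (log2 fold change -0.25, SE 0.12; edgeR unadjusted p = 0.0566, adjusted p = 0.80). Of the 11 genes, 4 had values above 0 and 7 below.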

How the data were processed

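Expected counts per gene from RSEM, not scaled to depth, were deposited for 10 libraries of mouse lumbar spinal cord. Per the submitters' processing notes the authors used STAR, RSEM and edgeR 4.2.0 with build mm10. The strand setting, read filters, annotation and the other versions are not stated in these sources. Of the deposited counts 5.04% were not whole, and all were rounded. Genes were filtered with filterByExpr (minimum count 10, minimum total 15) in edgeR 4.0.16 (R 4.3.3), scaled with TMM and fitted on all 13287 genes by the quasi-likelihood test with no covariate, with Benjamini-Hochberg adjustment over all genes (threshold 0.05, two-sided). Standard errors and 95% intervals derive from the F statistic. CPM uses TMM-scaled library sizes. A value of 3 counts was 0.385 to 0.816 CPM, and counting error weighs most on low members. Lengths and GC content are medians over GENCODE M21 transcripts (99.7% of tested genes); coordinates are RefSeq on GRCm38, the assembly mm10 names. Per-kilobase levels do not use effective lengths. Paralogue ratios were tested over all 252 assignments of the libraries, and those without paclitaxel replicate 3 were added after the data were seen.

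Members and gene lists were chosen with earlier results of these data known. Members with values in every library were those at an unadjusted p under 0.05, the lowest p and the highest per-kilobase level of each substrate group, the ADP/ATP carriers and the uncoupling proteins. Slc25a37 and other members given in part were chosen after their values were seen. Libraries of a group differed beyond sampling noise in each pair (chi-square of 1.61 to 6.89 per degree of freedom). The fit was tested on simulated data, with planted changes larger than that of any member. That test does not show how well changes as small as those of the members would be found. Alternatives were 3 other scalings, 2 other filters, DESeq2 1.42.0, limma-voom (limma 3.58.1), the same with quality weights per library, the likelihood ratio test of edgeR, the replicate number as a block, a loess correction for GC content and length, and libraries left out. Protein sequences were not analysed here, and 1 tested member, included in the counts, is not reported by name or plotted here.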

Additional observations from a re-analysis of the deposited data

Results flagged for a closer look

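Among 32 groups of 5 libraries of the tested members given by library, 3 held a library far from the others of its group, where chance gives about 1 in 20. Slc25a22 was at 60.9 CPM in paclitaxel replicate 3, and the nearest paclitaxel library was at 75.03 CPM. Slc25a5 was at 251 CPM in paclitaxel replicate 3, and the nearest paclitaxel library was at 278 CPM. Ucp3 was at 13.6 CPM in vehicle replicate 5, and the nearest vehicle library was at 9.33 CPM. The glucocorticoid response genes summed to 1154 CPM in paclitaxel replicate 3 and to 652 CPM in vehicle replicate 5, the highest libraries of their groups, and their part in these levels was not tested.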

How the results depend on the processing

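Over 23 alternatives, 0 of the 42 members had an adjusted p under 0.05, and 23 of the 42 kept the sign of their fold change throughout. Over all genes, 1 gene was called in DESeq2, 1 in edgeR's likelihood ratio test, 1 with the replicate number as a block and 1 with the block and the GC content and length correction together, against 0 in the quasi-likelihood test. At an unadjusted p under 0.05, members (all genes) numbered 4 (806) in the quasi-likelihood test, 2 (571) in DESeq2, 1 (681) in the likelihood ratio test, 1 (610) with the GC content and length correction, 2 (839) with the replicate block and 0 (625) with the block and that correction together. With each library left out in turn they numbered 1 to 7, and all genes at that level numbered 515 (without vehicle replicate 3) to 1299 (without vehicle replicate 1). Without paclitaxel replicate 3 and vehicle replicate 4 together there were 2 members and 508 genes. The block drew on numbers that pair nothing in the labels, and deviations of same-numbered libraries correlated at -0.10 to 0.14, with 2 of 5 paclitaxel libraries correlating best with their own number.

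The median log2 fold change of the members ran from -0.061 to -0.033 with each library left out. Sign changes among the members given by library were near 0 in every case. Slc25a27 was at 0.0087 in limma-voom with quality weights. With each library left out, Slc25a27 ran from -0.079 to 0.0026, Slc25a33 from -0.083 to 0.0067, Slc25a39 from -0.022 to 0.10 and Slc25a5 from -0.045 to 0.0018. Members under about 6 CPM are limited by depth, with intervals wider than 1.5-fold for 4 of them.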
